A study of Mus musculus with 24 samples.

Results

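The nuclear genes of the respiratory chain and the ATP synthase were followed across sorted mouse astrocytes, the glial cells that support neurons and clear transmitters from synapses. Members were all genes whose names begin with Ndufa, Ndufb, Ndufc, Ndufs or Ndufv and a number, with Cox4 to Cox8, with Uqcr or with Atp5, together with Sdha, Sdhb, Sdhc and Sdhd, and pseudogene rows ending in -ps were left out. The rule found 84 of the 24394 genes in the table, 37 of them in complex I, 4 in complex II, 8 in complex III, 18 in complex IV and 17 in complex V, and used no measured value. It works on names, so Atp5s and Atp5sl are included although they are not subunits of the enzyme, Ndufa4 is counted with complex I although its protein is now placed in complex IV, and the subunit genes Ndufab1 and Cyc1 are outside it. Mitochondrially encoded subunits were not analysed here.

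Bulk RNA-seq was done on astrocytes sorted by FACS from thalamus, cortex, hippocampus and olfactory bulb. Each region had 3 libraries labelled WT, of control mice, and 3 labelled KO, of NFIXcKO mice, in which Nfix is conditionally deleted, so 24 libraries fell into 8 groups. Nfix codes for a transcription factor of glial development in the NFI family, and the design asks what its conditional loss changes in each region's astrocytes. The sources used here do not give the Cre driver, the deleted exons, strain, age or sex. Neither was it stated that libraries of a group are from different animals, and a p-value here reflects only how far the libraries spread, which may be technical. Levels are normalized reads (reads over the library's size factor), and in such bulk samples fewer cells of a type and less RNA per cell cannot be told apart.

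The respiratory chain moves electrons from NADH, through complex I, and from succinate, through complex II, to ubiquinone, then through complex III and cytochrome c to complex IV, where oxygen is reduced to water. Complexes I, III and IV pump protons across the inner mitochondrial membrane, and complex V, the ATP synthase, makes ATP as the protons flow back. Astrocytes are known for a high rate of glycolysis, yet they also hold many mitochondria and run the same chain, whose nuclear subunit genes are often activated together by the factors NRF1 and GABP and their coactivators.

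Libraries held 2517487 to 25616591 reads assigned to genes. Cortex WT replicate 3 and thalamus KO replicate 3 stood apart, with 3871 and 2220 genes above 0 against 7509 to 11984 in the other 22, and are called the sparse libraries. They had 48 and 28 members above 0, against 74 to 81 elsewhere, and 3 members made up 70.1% and 74.9% of their member reads, against 15.9 to 31.7% elsewhere. The 11 astrocyte markers summed to 33691 to 100403 CPM (reads scaled to a common library total) in the 22 libraries, 19441 in the first sparse library and 12169 in the second, where Aqp4, Gfap, Aldh1l1 and Gjb6 were all at 0. The 10 oligodendrocyte markers summed to 51082 and 76162 CPM in the sparse libraries, against 1535 to 29140 with a median of 3977 in the others. The 4 ependymal and choroid plexus markers exceeded 10000 CPM in thalamus WT replicate 2, hippocampus KO replicate 2, thalamus KO replicates 1 and 2 and hippocampus WT replicate 1. Nfix itself was not lower in the libraries labelled KO. It held 2360.2 to 2552 normalized reads in WT olfactory bulb libraries against 3440.2 to 6119 in KO, 3900.5 to 5117 against 5409.6 to 7904 in the hippocampus, 3320.1 to 4402 against 4229.8 to 5713 in the cortex and 2829 to 3641 against 3009 to 11701 in the thalamus. The gene sum includes any reads from undeleted exons, and which exons those are is not known here. KO and WT therefore stand for the libraries so labelled, and every direction between them rests on the labels. Cortex, thalamus and pooled results that these 2 libraries change are given with and without them.

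Most members were detected in astrocytes of every region, though levels varied widely between libraries. Of the 84, 72 were above 0 in all of the 22 fuller libraries, against 3665 of the 24394 genes, while 10 were at 0 in 10 or more of them. Above 0 can mean few reads: Ndufb3 ran from 0.861 to 1093 normalized reads over these 22. With the sparse libraries included, 20 members remained above 0 throughout. Members took 0.598 to 0.937% of reads in the olfactory bulb, 0.827 to 1.01% in the hippocampus, 0.900 to 1.16% in the cortex without its sparse library, and 0.979 to 1.39% in the thalamus without its own. The plot of members by library shows the block of widely detected genes, the thin tail of low isoforms in complex IV, and the gaps in the sparse libraries.

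**Figure D1:**
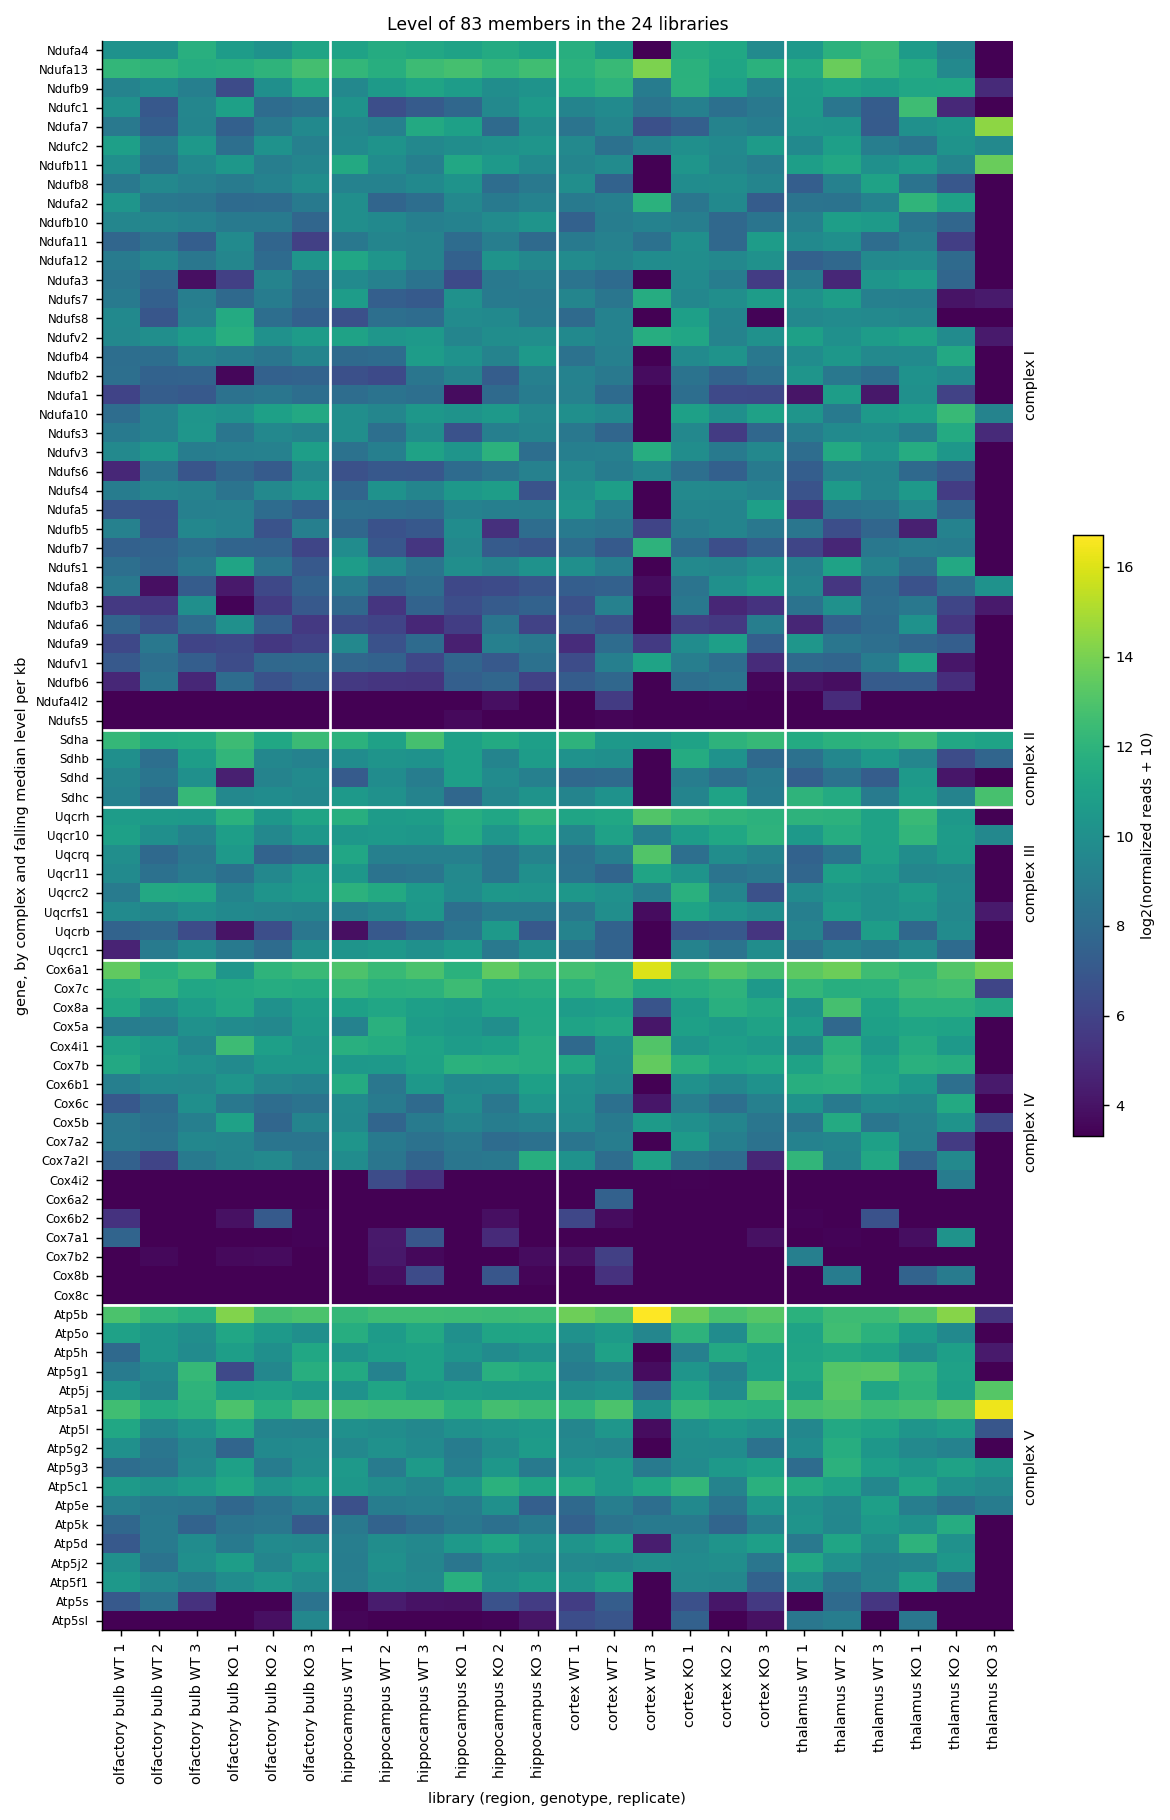
Level of 83 members (rows, grouped by complex and ordered by median level per kb) in the 24 libraries (columns), as normalized reads on a log scale. The columns of cortex WT replicate 3 and thalamus KO replicate 3, with 48 and 28 members above 0, hold many dark cells, and the low rows of complex IV hold the isoforms at 0 in most libraries.

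Ranked by level per kb of transcript, a scale on which genes of different length can be compared, the small subunits of complex IV came first. Cox6a1, a subunit at the outer face of cytochrome c oxidase, had a median of 10814 normalized reads per kb over the 24 libraries. It was followed by Cox7c, another small complex IV subunit, at 6369.6, then by Ndufa4 at 4588 and Uqcrh, the hinge protein of complex III, at 4539.7. Below these came Cox8a at 3703, Uqcr10 at 3620.3 and the catalytic beta subunit of ATP synthase, Atp5b, at 3333. Ndufa13, an accessory subunit of complex I also known as GRIM-19, reached 3300.0, and Atp5o, the stalk subunit called OSCP, 3101. The 4 subunits of complex II lay lower, led by Sdha at 1013 and Sdhb at 834. Neighbours in this order overlapped widely between libraries: over the 22 fuller libraries, the lowest, median and highest normalized reads were 1294, 5913 and 13085 for Cox6a1.

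Some members were far steadier than others. The coefficient of variation (CV, the SD over the mean) across the 22 libraries was 0.300 for Atp5a1, the alpha subunit of the F1 head, and 0.313 for Cox7c, the lowest of the 74 members with a mean of at least 100 normalized reads. The median member had a CV of 0.719, and the median of the 8126 genes at that level was 1.15. Median CVs ran from 0.614 in complex IV and 0.641 in complex III to 0.677 in complex V, 0.795 in complex I and 0.839 in complex II. The sums over a complex had CVs of 0.242 for complex I, 0.271 for complex IV, 0.291 for complex III, 0.300 for complex V and 0.323 for complex II.

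The 250 bases before the start of Cox6a1 and of Atp5b are shown because these were the members with the highest mean level per kb in complexes IV and V, and because respiratory chain promoters are known for NRF1, GABP and CCAAT motifs. Both come from RefSeq on GRCm38.p6, Cox6a1 from the minus strand at chr5:115348959-115349208 and Atp5b from the plus strand at chr10:128083057-128083306. Capitals mark matches to CGCANGCG (the core of the NRF1 motif), CCGGAAG (the GABP motif) and CCAAT, on either strand.
Cox6a1: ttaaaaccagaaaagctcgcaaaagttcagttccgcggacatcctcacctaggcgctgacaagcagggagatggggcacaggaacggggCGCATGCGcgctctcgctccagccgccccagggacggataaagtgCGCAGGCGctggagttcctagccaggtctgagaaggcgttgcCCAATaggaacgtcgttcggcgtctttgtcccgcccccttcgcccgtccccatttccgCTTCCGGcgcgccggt
Atp5b: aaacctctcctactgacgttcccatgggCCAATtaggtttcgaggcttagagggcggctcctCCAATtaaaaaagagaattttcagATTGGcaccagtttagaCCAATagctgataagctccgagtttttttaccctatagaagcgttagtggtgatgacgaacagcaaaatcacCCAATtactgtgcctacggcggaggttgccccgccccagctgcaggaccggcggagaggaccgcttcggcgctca
Cox6a1 held 2 matches to CGCANGCG, 1 to CCGGAAG on the reverse strand and 1 to CCAAT, whereas Atp5b held 5 matches to CCAAT, 1 of them on the reverse strand, and none to the other motifs.

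Promoter windows of 300 bases, 250 before and 50 after the start, were found in RefSeq for 69 members and 27025 genes in all, and a gene counted when any of its windows held a motif on either strand. CGCANGCG was in 26 members (37.7%), against 9.22% of all genes. The exact palindrome CGCATGCG, whose matches are also counted under CGCANGCG, was in 9 members (13.0%), against 2.07% of all genes, and these were Atp5g2, Atp5j, Atp5k, Atp5l, Cox6a1, Ndufa11, Ndufa8, Uqcr11 and Uqcrc1. CCGGAAG was in 16 members (23.2%), against 9.93%, and CCAAT in 31 (44.9%), against 41.1%. AAGATGGCG, the YY1 motif, was in 8 members (11.6%), against 1.64%, namely Atp5j, Atp5j2, Atp5sl, Ndufa9, Ndufc1, Ndufs4, Ndufs6 and Ndufs7. TTGGCA, a half-site of the NFI family to which NFIX belongs, was in 14 members (20.3%), against 16.1% of all genes, among them Atp5b, where it shares letters with the CCAAT match on the reverse strand. A match is a description of the letters and not a site.

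The makeup of the chain was broadly shared between libraries. Over the 22 fuller libraries complex V made up 25.4 to 39.6% of the member reads, with a median of 31.6%, and complex I 23.8 to 34.7%, with a median of 29.4%. Complex IV followed with 17.4 to 29.8%, complex III with 6.72 to 13.4% and complex II with 2.78 to 12.8%. The sparse libraries fell outside most of these ranges. In cortex WT replicate 3 complexes IV and V took 34.2% and 41.8% and complex II 0.505%, and in thalamus KO replicate 3 complex V took 59.1% and complex III 0.476%.

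Summed over all members, thalamic astrocytes held the most respiratory chain reads and those of the olfactory bulb the fewest. Without the sparse libraries the sum was 11859 ± 1824 CPM (SD, n = 5) in the thalamus, 9892 ± 975 (n = 5) in the cortex, 9458 ± 675 (n = 6) in the hippocampus and 8001 ± 1353 (n = 6) in the olfactory bulb. The thalamic libraries ran from 9787 to 13868 and those of the olfactory bulb from 5984 to 9373, so these regions did not overlap on this scale. Summed as normalized reads the means kept that order, from 130318 in the thalamus to 83950.3 in the olfactory bulb, but the lowest thalamic library, at 104883, was under the highest of the olfactory bulb, at 110361. On the CPM scale, thalamus KO replicate 3, at 6509, fell inside the range of the olfactory bulb. Ependymal and choroid plexus markers summed to 211 CPM in thalamus WT replicate 1, whose member sum was 9787, to 7169 in WT replicate 3, at 11920, and to at least 11357 in the other 3 fuller thalamic libraries, against at most 107 in the olfactory bulb. Hippocampus and cortex overlapped with both ends of the order. The part of the choroid plexus reads in these sums was not tested.

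**Figure D2:**
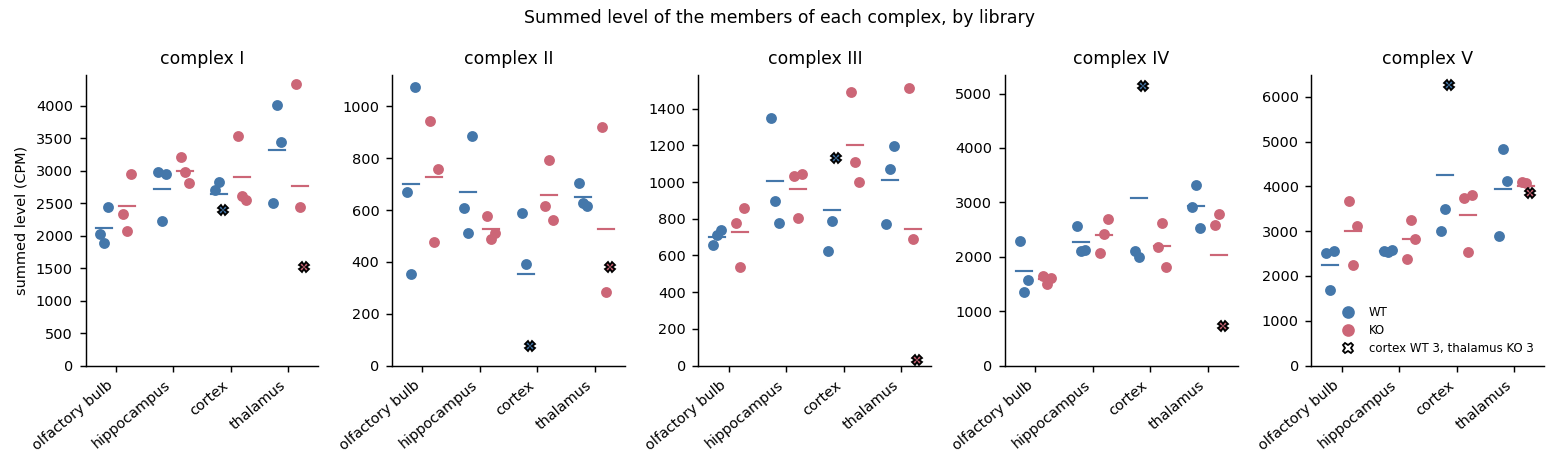
Summed CPM of the members of each complex (panels) in every library, by region, with WT and KO as separate marks, short lines for the group means, crosses for the sparse libraries and axes that start at 0. Within a complex, WT and KO libraries of a region intermingle. For complex III in the cortex they do so only through sparse WT replicate 3, at 1131 CPM. The other WT libraries there are at 622 and 789, and the KO libraries at 1493, 1110 and 1002. Cortex WT replicate 3 stands highest in complexes IV and V, while thalamus KO replicate 3 stands near 0 in complex III.

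The middle member was also highest in the thalamus and lowest in the olfactory bulb. Without the sparse libraries, the median member was 0.61 higher in the thalamus than in the olfactory bulb on the log2(value + 10) scale, with 59 of 79 members above 0, while the median of all genes was -0.26. The median member was 0.30 higher in the thalamus than in the hippocampus, 0.36 higher in the thalamus than in the cortex, 0.35 higher in the hippocampus than in the olfactory bulb, and 0.25 higher in the cortex than in the olfactory bulb. Hippocampus and cortex differed by 0.01. These medians share libraries with each other and rested on the sparse libraries: with all 24, thalamus against olfactory bulb was -0.24, with all genes at -0.62. Without the 5 libraries rich in choroid plexus markers, which leaves the sparse library as the only thalamus KO library, it was -2.10, with all genes at -1.28.

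Single members did not carry this regional order past the test. In limma's F test between regions, with both genotypes and all 24 libraries, 0 of the 79 members tested had an adjusted p under 0.05, where 1.40% of the 12477 genes passed, and 1 member had an unadjusted p under 0.05 against 1284 genes. The smallest limma adjusted p among members was 0.452, for Cox8b, a heart and muscle form of a complex IV subunit, followed by Atp5b at 0.573, Ndufa13 at 0.613, Ndufb11 at 0.626 and Atp5sl at 0.669. Without the sparse libraries 0 members passed again, where 2.87% of 12424 genes did, but 6 members had an unadjusted p under 0.05 against 1559 genes. The smallest limma adjusted p was then 0.0636, for Atp5g1, followed by 0.163 for Cox8b and 0.208 for Ndufb9. Cox8b was at 0 in 16 of 24 libraries, and its highest levels were 475 in thalamus WT replicate 2, 467 and 182 in thalamus KO replicates 2 and 1, and 108 in hippocampus KO replicate 2. All 4 were among the 5 libraries above 10000 CPM of ependymal and choroid plexus markers, at 92258, 11357, 34442 and 54693 CPM, and the part of those cells in the Cox8b level was not tested.

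The 2 large subunits of the F1 head, which stand in equal number in the enzyme, did not keep a fixed ratio in RNA. The ratio of Atp5b to Atp5a1, a measure chosen after the values were seen, was 0.537 to 2.89 over the 22 libraries, with a median of 1.28. Its median was highest in the cortex, at 2.62 with a range of 1.38 to 2.89. The medians were 1.37 in the olfactory bulb (0.878 to 2.40), 0.970 in the hippocampus (0.697 to 1.52) and 0.943 in the thalamus (0.537 to 2.08). Each of these ranges overlapped with that of the cortex. Genotypes are pooled here, and in the thalamus KO replicates 1 and 2 were at 1.31 and 2.08, above all WT libraries, while WT and KO overlapped in the other regions. Atp5a1 itself ran from 3048 to 9597 normalized reads in these libraries, while Atp5b ran from 3460 to 19925. In the sparse libraries the ratio broke apart, with Atp5b at 107113 and Atp5a1 at 1146 in cortex WT replicate 3, and Atp5b at 29.7 and Atp5a1 at 83749 in thalamus KO replicate 3.

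The nuclear core of complex I, whose subunits bind flavin and the iron-sulfur clusters, was expressed at moderate and variable levels. Over the 22 libraries the lowest, median and highest normalized reads were 594, 1089 and 3395 for Ndufv2 and 124, 689.8 and 2679 for Ndufs1, which carries several clusters. They were 0, 590.2 and 2925 for Ndufs8, 40.2, 567 and 2889 for Ndufs3, 6.49, 499.7 and 1728 for Ndufs7 and 7.79, 202 and 2123 for Ndufv1, the subunit that binds NADH. Thus Ndufv2 and Ndufs1 stayed above 100 normalized reads in every one of the 22, while Ndufs7 and Ndufv1 fell below 10 and Ndufs8 to 0 in at least 1 of them. Accessory subunits reached higher: 791, 4128 and 12857 for Ndufa13 and 605, 2099 and 5362 for Ndufa4.

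In complex II the flavoprotein Sdha was the steadiest, with a lowest, median and highest of 1427, 3346 and 7012, and the iron-sulfur subunit Sdhb ran over 75.3, 1001 and 4505. The membrane anchors Sdhc and Sdhd ran over 213, 756 and 5090.1 and 7.79, 471 and 1847. In complex III the hinge protein Uqcrh ran over 1369.6, 2483 and 5397, and the Rieske iron-sulfur protein Uqcrfs1 over 285, 779 and 2189. The core subunits Uqcrc1 and Uqcrc2 ran over 15.2, 538 and 1472 and 90.4, 1269.9 and 3927.

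Complex IV draws on paired isoforms, and astrocytes used the widely expressed form of nearly every pair. Over the 22 libraries the widely expressed forms had lowest, median and highest levels of 230.2, 1744 and 5872 for Cox4i1, 283, 959 and 3637 for Cox6b1, 848, 2172 and 4540.5 for Cox7b and 967, 2036 and 7018 for Cox8a. Cox8c, a testis form, was at 0 in 24 of 24 libraries, a limit of 3 reads or 0.117 to 0.337 CPM in the 22 fuller libraries, up to 1.19 CPM in thalamus KO replicate 3, for counting error only. Cox6a2, the muscle form of Cox6a1, was at 0 in 23, and its single value was 170.1 in cortex WT replicate 2. Cox4i2, known from lung, was at 0 in 20, and so was Ndufa4l2, a paralog of Ndufa4 induced by hypoxia, with a highest value of 40.1 in cortex WT replicate 2.

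Exceptions sat in single libraries. Cox7a1, the heart and muscle form, was at 0 in 15 libraries but reached 1178 in thalamus KO replicate 2. There it made up 98.0% of the level per kb of Cox7a1 and Cox7a2. Over the 22 libraries its share was 16.5% pooled, this library included, with a median of 0.0%. The same library held the highest Cox4i2, at 478, where the next library was at 76.5. Its Cox4i2 share was 24.4%, against 1.31% pooled with this library included and a median of 0.0%. Among the 22, thalamus KO replicate 2 also had the highest sums of oligodendrocyte markers (29140 CPM), endothelial and mural markers (642 CPM) and fibroblast markers (550.1 CPM). Its ependymal and choroid plexus markers summed to 11357 CPM. The part of any of these cells in these isoforms was not tested. Cox7b2 was at 0 in 15 libraries and reached 533 in thalamus WT replicate 1, where the next library was at 47.4. Cox6b2, a testis form, was at 0 in 15 and peaked at 129 in olfactory bulb KO replicate 2, 20.0% of the level per kb of its pair. Cox7a2 and its relative Cox7a2l, which joins complexes III and IV into supercomplexes, ran over 40.2, 425 and 1912 and 17.6, 420.0 and 4429.

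In complex V the identical c subunit of the proton-driven ring is made from 3 genes that differ in their leader peptides. Over the 22 libraries Atp5g1 made up 52.8% of their summed level per kb, Atp5g2 25.9% and Atp5g3 21.3%. Between libraries the shares spread widely, up to 75.8% for Atp5g1, 10.9 to 67.8% for Atp5g2 and 5.31 to 82.8% for Atp5g3, so that each gene led in some library. The Atp5g1 share depends on its short transcript, since with its longest principal transcript its mean level per kb over the 24 libraries fell from 3883 to 491. A further limit for Atp5g2 was that 38.3% of its 50-base stretches also occur in other transcripts. Such stretches were found in 37 of the 84 members and reached 20% or more in 13, led by Atp5l at 68.5% and Uqcrb at 43.2%, so the reads of these members are less certain.

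Ndufs5, an accessory subunit of complex I, was close to absent from the table, with 5 reads over the 24 libraries, 3 in hippocampus KO replicate 1 and 2 in cortex WT replicate 2. BC002163, which GENCODE annotates as a processed pseudogene, held 7425 reads in 23 libraries, with a lowest, median and highest of 22.8, 180 and 703 normalized reads in the 22 fuller ones. On GRCm38, Ndufs5 lies on the minus strand at chr4:123712710-123718202 and BC002163 on the plus strand at chr16:42955631-42955949. Over 319 compared bases of the Ndufs5 coding sequence 2 differed, T81C and A105G, counted from 1 at the A of the start codon with the Ndufs5 base first, which left 99.4% identical. Coding bases 51 to 150 are shown because they hold both differences, which are in capitals.
Ndufs5: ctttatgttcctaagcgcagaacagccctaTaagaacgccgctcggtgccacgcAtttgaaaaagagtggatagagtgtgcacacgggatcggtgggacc
BC002163: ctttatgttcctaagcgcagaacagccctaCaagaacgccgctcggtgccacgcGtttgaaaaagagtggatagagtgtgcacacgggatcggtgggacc
Reads that lie within the compared bases and cover neither differing base cannot tell these genes apart, so those under BC002163 may hold some of Ndufs5. Of 903 stretches of Ndufs5, counted as for the other members, 196 (21.7%) also occur in BC002163. The remaining stretches occur in no other gene, yet Ndufs5 held 5 reads in all, so its unique part had at most these. The level of Ndufs5 in these astrocytes remains uncertain.

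**Figure D3:**
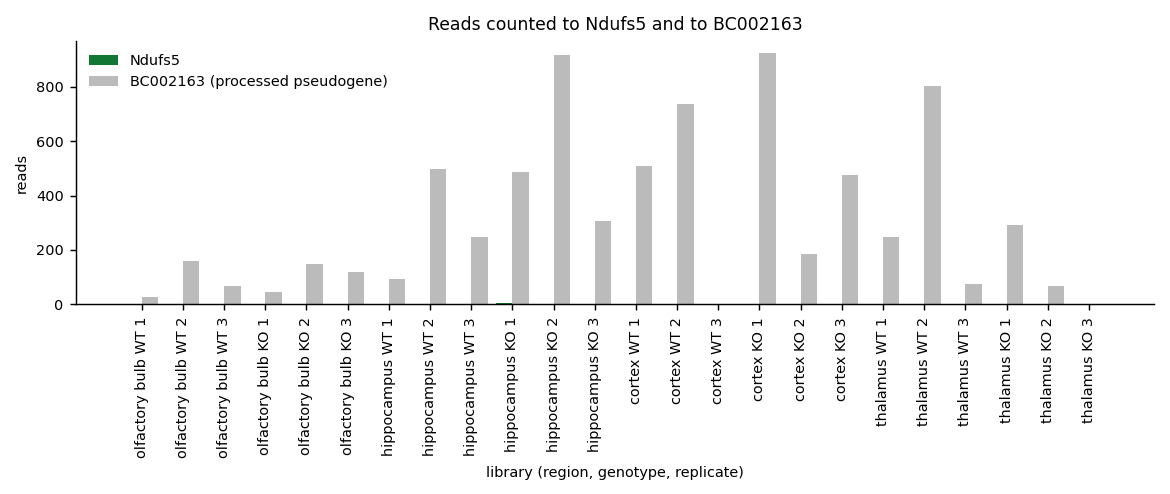
Reads counted to Ndufs5 and to the processed pseudogene BC002163 in each of the 24 libraries, on an axis that starts at 0. Ndufs5 has 5 reads in all and BC002163 has 7425.

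Between KO and WT olfactory bulb no member passed the test. Of 74 members tested, 0 had a limma adjusted p under 0.05, as had 0.0% of 9385 genes, and 3 had an unadjusted p under 0.05 against 376 genes. Members lay slightly more often higher in KO, 44 against 30, with a median log2 difference of 0.17 where all genes had -0.04. By complex the medians were 0.17 in I, 0.08 in II, 0.04 in III, 0.08 in IV and 0.25 in V.

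Atp5b had the smallest p in the olfactory bulb, at 7662, 4557 and 3460.1 normalized reads in WT replicates 1 to 3 and 18567, 6668 and 7736 in KO. KO replicate 1 was far above the rest, and KO replicate 2 lay below WT replicate 1, so the groups overlapped. The log2 difference was 0.99 (SE 0.39) with a limma adjusted p of 1.00. Cox6a1 was at 11259, 3447 and 5267 in WT and 1294, 4236 and 5396 in KO, a log2 difference of -0.93 (SE 0.46). It ranged widely within both groups, with the highest library in WT and the lowest in KO. Ndufa10, an accessory subunit of the matrix arm of complex I, was at 269, 592 and 1268 in WT and 1069, 1966 and 2653 in KO, a log2 difference of 1.58 (SE 0.80). Only KO replicate 1 lay inside the WT range.

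Atp5h, the d subunit of the peripheral stalk, was at 225, 1358 and 875 in WT and 1834, 994 and 2487 in KO. Cox7a2l was at 167, 56.8 and 446 in WT and 647, 780.5 and 447 in KO, so that the lowest KO library only just exceeded the highest WT library. Ndufa1, a small membrane subunit of complex I, was at 55.8, 142 and 123 in WT and 315, 369.6 and 273 in KO. It and Cox7a2l were the 2 members whose KO libraries all lay above WT, 2.70% of members where 4.37% of genes did so. Ndufb10, at 686, 709 and 596 in WT and 428, 439 and 201 in KO, was the 1 member with the reverse, 1.35% against 4.69% of genes.

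In the hippocampus no member passed either. Of 74 members 0 were called, where 0.0109% of 9213 genes were, and 0 had an unadjusted p under 0.05 against 578 genes. KO was higher for 45 members and lower for 29, with a median log2 difference of 0.23 where all genes had -0.16. Medians were 0.25 in complex I and 0.21 in complex V, but -0.28 in II, -0.14 in III and -0.03 in IV.

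Members with groups that did not overlap were most frequent here on the higher side, 9 of 74 (12.2%) where 5.61% of genes were, and none of them was called. They were the ATP synthase subunits Atp5c1, Atp5d, Atp5f1 and Atp5l, the complex IV subunit Cox7b, and Ndufa5, Ndufb6, Ndufs6 and Ndufs8 of complex I. Cox7b was at 1384, 1527 and 2124 in WT and 3798, 3414 and 3124 in KO, a log2 difference of 1.05 (SE 0.55) and a limma adjusted p of 0.797. All KO libraries lay above all WT libraries. Atp5c1, the gamma subunit that rotates in the head, was at 1336, 947 and 661 in WT and 1409, 3739 and 2249.5 in KO, a log2 difference of 1.27 (SE 0.66). Atp5f1, the b subunit of the stalk, was at 514, 887 and 748 in WT and 3496, 1071 and 1541 in KO, with KO replicate 1 far above the others. Ndufs8, the iron-sulfur subunit of the core, was at 86.4, 288 and 253 in WT and 864, 818 and 441 in KO.

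On the lower side 4 members did not overlap, Ndufa8, Ndufv2, Uqcrc2 and Uqcrfs1, 5.41% where 6.52% of genes did so. Uqcrc2, a core subunit of complex III, was at 3927, 2803 and 1520.5 in WT and 845, 1360.1 and 1252 in KO, a log2 difference of -1.17 (SE 0.63) with a limma adjusted p of 0.81. Its WT libraries were spread more widely than its KO libraries. Uqcrb, a small complex III subunit with 43.2% shared stretches, was at 4.39, 123 and 209 in WT and 364, 1527 and 124 in KO, and overlapped. Uqcrc2 also overlaps the gene Pdzd9 in the annotation, and whether reads were counted by strand was not given in the sources used here.

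**Figure D4:**
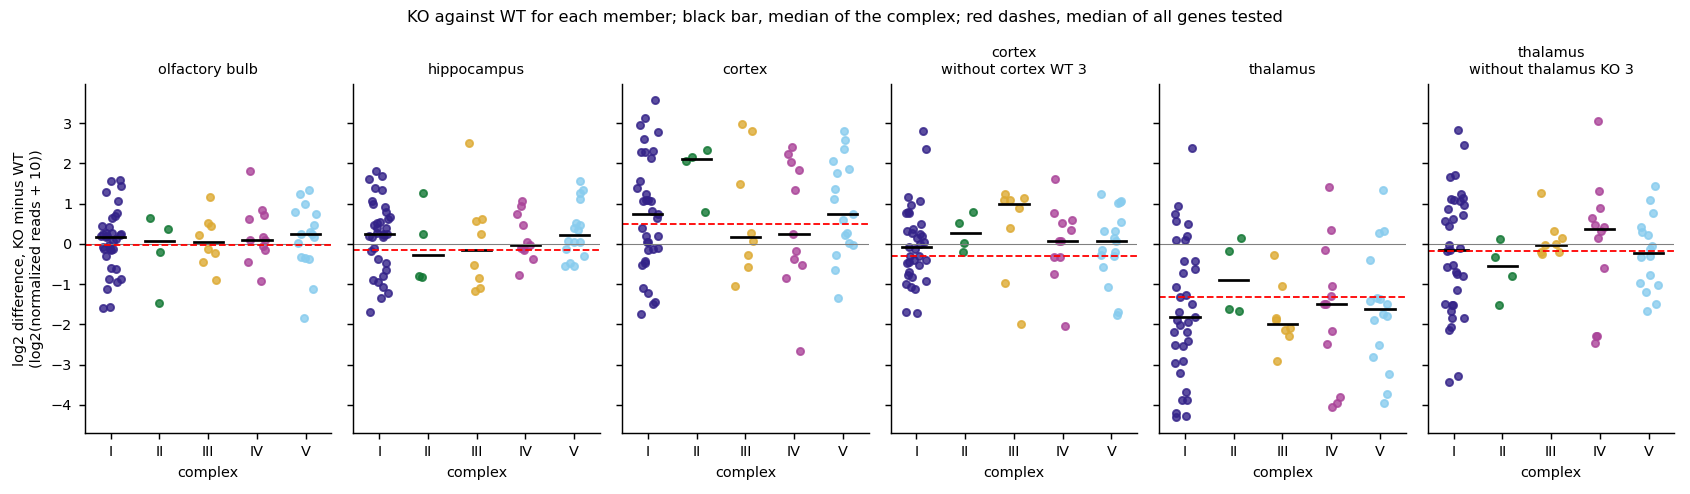
Log2 difference of KO minus WT, on log2(normalized reads + 10), for each member tested (points) by complex in each region, with the cortex and thalamus repeated without their sparse library. Black bars are complex medians and red dashes the median of all genes tested; the median of all members was 0.74 against 0.49 in the cortex and -1.68 against -1.31 in the thalamus.

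In the cortex the members lay higher in KO, and so did the genes at large. Of 75 members 52 were above 0, with a median log2 difference of 0.74 where all 8376 genes had 0.49. Without cortex WT replicate 3 the count was 41 against 34, the median 0.07 and that of all genes -0.29. Of members 0 were called, as were 0.0% of genes, and 1 had an unadjusted p under 0.05 against 204 genes. Complex medians moved with that library too, from 0.74 to -0.08 in I, 2.11 to 0.27 in II, 0.18 to 1.00 in III, 0.24 to 0.07 in IV and 0.73 to 0.07 in V.

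Atp5b was at 13578, 10499 and 107113 in WT and 13225, 7398 and 9327 in KO, a log2 difference of -1.35 (SE 0.54) with a limma adjusted p of 1.00. The sparse library alone was high, and without it the difference was -0.30. Ndufa8, an accessory subunit of the intermembrane space side of complex I, was at 147, 171 and 3.78 in WT and 351, 1048 and 1702 in KO, a difference of 3.57 (SE 2.19), or 2.36 without the sparse library. All KO libraries lay above all WT libraries. Ndufa10 was at 1022, 823 and 0 in WT and 1916, 1004 and 2001 in KO, with differences of 2.95 and 0.77 without that library. The Rieske protein gene Uqcrfs1 was at 382, 979 and 3.78 in WT and 2189, 1245 and 935 in KO, with differences of 2.98 and 1.14. Ndufa9, an accessory subunit near the quinone site, was at 22.2, 253 and 37.8 in WT and 895, 1849 and 151 in KO, with differences of 3.13 and 2.81. In both of these the KO and WT ranges overlapped.

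Groups that did not overlap were found for 4 members higher in KO cortex, Ndufa8, Ndufc2, Sdhd and Uqcrc1 (5.33%, where 4.73% of genes were), and for Ndufs6 alone lower (1.33% against 2.88%). Without the sparse library these were 8 members (10.7% against 6.57%) and 7 (9.33% against 12.5%). Ndufs6, a zinc-binding accessory subunit, was at 762, 482 and 729.9 in WT and 283, 161 and 435 in KO, a log2 difference of -1.22 (SE 2.13). It shares its locus with the overlapping gene Mrpl36.

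In the thalamus, the region named in the series title, members lay lower in KO with all libraries and near 0 without thalamus KO replicate 3. Of 75 members 61 were below 0, with a median log2 difference of -1.68 where all 7675 genes had -1.31. Without that library the count was 42 below and 33 above, the median -0.10 and that of all genes -0.18. Of members 0 were called, as were 0.0% of genes, and 2 had an unadjusted p under 0.05 against 293 genes. Complex medians were -1.81 in I, -0.89 in II, -1.50 in IV and -1.62 in V, with III the lowest, and without the library -0.17 in I, -0.56 in II, -0.02 in III, 0.37 in IV and -0.22 in V.

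Ndufa13 was at 2876, 12857 and 4871 in WT and 3051, 791 and 0 in KO, a log2 difference of -4.28 (SE 2.02) with a limma adjusted p of 0.859. KO replicate 1 lay within the WT range, and without KO replicate 3 the difference was -1.85. Atp5g1 was at 2613, 9011 and 9694 in WT and 4629, 2050.1 and 0 in KO, with differences of -3.74 and -0.99 without that library. Atp5o was at 2194, 6230.0 and 3735 in WT and 1654, 822 and 0 in KO, with differences of -3.95 and -1.66. For it all KO libraries lay below all WT libraries.

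The iron-sulfur subunits Ndufs8 and Ndufs7 of the complex I core were low in KO replicate 2 and in the sparse KO replicate 3, where 56 of 84 members were at 0. Other core subunits differed in KO replicate 2. Ndufs1, at 2679 normalized reads, and Ndufs3, at 2889, were there at their highest of the 22 fuller libraries, and Ndufv1, at 7.79, at its lowest. Ndufs8 was at 757, 870.3 and 778 in WT and 691, 0 and 0 in KO, with a log2 difference of -4.30 (SE 2.35), or -3.27 without KO replicate 3. Ndufs7 was at 1099, 1728 and 563 in WT and 536, 6.49 and 9.9 in KO, with a difference of -4.20 (SE 2.38), or -3.45. KO replicate 1 lay just under the lowest WT library for both. In the opposite direction, Atp5b was at 3680.4, 5757 and 5677 in WT and 8953, 19925 and 29.7 in KO, with a difference of -1.36 that became 1.43 without KO replicate 3.

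No member had all KO thalamus libraries above WT (0% against 1.21% of genes), and 11 had all below (14.7% against 9.97%). Among them were Atp5e, Atp5g2, Atp5h and Atp5o of the ATP synthase, Cox6b1 and Cox7a2 of complex IV, and Ndufa9, Ndufb10, Ndufs7 and Ndufs8 of complex I. Without KO replicate 3 the same 11 lay below (14.7% against 11.7%), and 7 lay above (9.33% against 8.77%), Atp5b, Cox5a, Cox7c, Ndufa10, Ndufa2, Ndufb7 and Ndufb9.

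**Figure D5:**
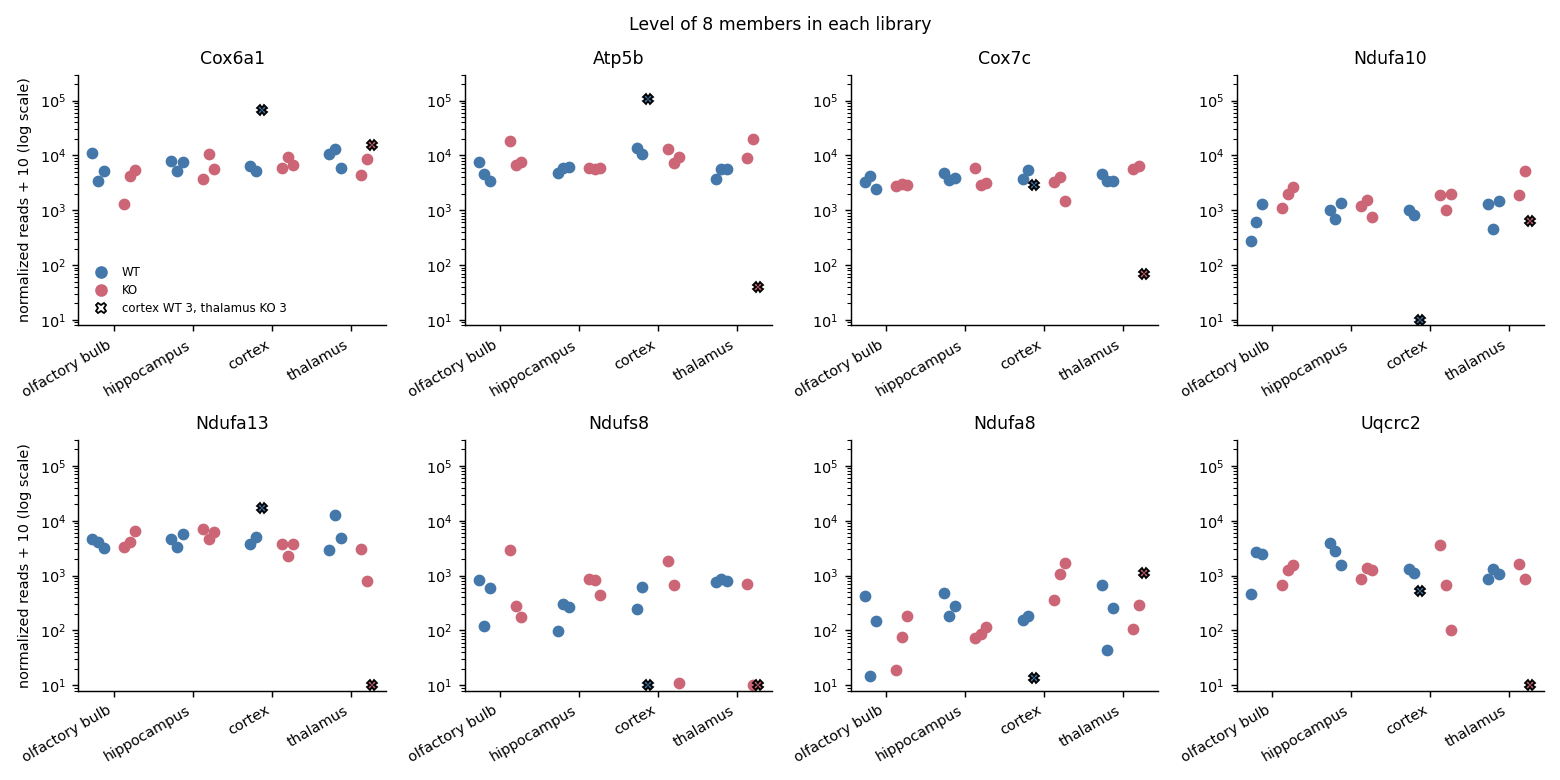
Normalized reads plus 10, on a log axis, of Cox6a1, Atp5b, Cox7c, Ndufa10, Ndufa13, Ndufs8, Ndufa8 and Uqcrc2 in each library by region, with WT and KO side by side and the sparse libraries marked apart. Atp5b reaches 107113 in cortex WT replicate 3, and Ndufs8 is at 0 in thalamus KO replicates 2 and 3.

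Averaged over the 4 regions, in a fit of all 24 libraries that are also those of the comparisons above, 0 of 79 members were called, as were 0.0% of 12477 genes, and 0 had an unadjusted p under 0.05 against 607 genes. There were 32 members above 0 and 47 below, with a median of -0.16 where all genes had -0.17, and 44 against 35 without the sparse libraries, with medians of 0.04 and -0.14. Ndufa10 had the smallest p, with a log2 difference of 1.41 (SE 0.73) and a limma adjusted p of 0.971, or 1.06 without the sparse libraries. It was followed by Ndufa13 at -1.20 (SE 0.65), Ndufb10 at -1.14 (SE 0.75) and Uqcrc2 at -1.08 (SE 0.76), which without the sparse libraries were -0.43, -0.66 and -0.61.

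Of the 73 members tested in every region, 5 were higher in KO in all of them, Atp5j, Cox8a, Ndufa10, Ndufb11 and Ndufb6 (6.85%, where 3.24% of 6441 genes were). Another 5 were lower in all, Cox6a1, Cox7c, Ndufb9, Uqcrc2 and Uqcrq (6.85%, where 7.56% of genes were). The sparse libraries decided the sign of 8 of these 10. Without cortex WT replicate 3 the cortex difference turned to 0.33 for Cox6a1, 0.40 for Uqcrq and -0.77 for Ndufb6. Without thalamus KO replicate 3 the thalamus difference turned to 0.64 for Cox7c, 0.45 for Ndufb9, 0.15 for Uqcrc2, 1.26 for Uqcrq, -0.31 for Atp5j and -0.71 for Ndufb11. Cox8a and Ndufa10 stayed higher in KO in every region without these libraries, with cortex differences of 0.51 and 0.77 and thalamus differences of 0.47 and 1.70.

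Whether the KO difference depended on the region was tested by the interaction, and 0 of 79 members were called, as were 0.0% of genes. There were 3 members with an unadjusted p under 0.05 against 572 genes. Those with the smallest p were Cox7a2l, Cox6b1, Atp5g1, Ndufa13 and Ndufa4, all with a limma adjusted p of 0.939. For Cox7a2l the log2 difference was 1.82 for olfactory bulb, 0.95 for hippocampus, -2.66 for cortex and -4.06 for thalamus libraries, and without the sparse libraries it was -2.04 for cortex and -2.30 for thalamus.

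A member's log2 difference had a median standard error of 1.00 for olfactory bulb, 0.85 for hippocampus, 2.07 for cortex and 2.35 for thalamus libraries, and of 0.78 over all regions. A p that missed the threshold does not show that a gene was alike in KO and WT.

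Lists of genes that serve the chain were counted in the same way, and like the members they were chosen with earlier results known. The list of carriers and of subunits outside the naming rule (13 of 14 in the table), which includes cytochrome c (Cycs) and the adenine nucleotide carrier Slc25a4, had 7 of 13 above 0 for the olfactory bulb and the hippocampus, with medians of 0.22 and 0.10. It had 11 of 13 above 0 for the cortex and 3 of 13 for the thalamus, with medians of 1.32 and -1.46 beside 0.49 and -1.31 of all genes. Without the sparse library of each region these were 4 and 7 of 13, with medians of -0.18 and 0.17 beside -0.29 and -0.18. The assembly factors (42 in the table) had medians of 0.29 for olfactory bulb, -0.09 for hippocampus, 0.61 for cortex and -1.49 for thalamus, the last pair at -0.70 and -1.01 without the sparse libraries. The genes of pyruvate dehydrogenase and the citric acid cycle (17) had 0.07, -0.06, 0.88 and -2.64 in the same order, the last pair at -0.18 and -0.38 without them. The regulators of mitochondrial biogenesis (13), with 7 to 9 tested in a region, had -0.32, 0.94, 0.95 and -1.76, the last pair at -0.71 and -0.42 without them. In every list and comparison 0 genes were called by limma. The gene of the ATP synthase inhibitor, Atpif1, had a log2 difference of 2.06 (SE 0.90) in the hippocampus with a limma adjusted p of 0.705. Over the 22 libraries the median levels were 6608 normalized reads for citrate synthase (Cs), 5812 for Slc25a4 and 1644 for the coactivator Ppargc1a, while its relative Ppargc1b was at 0 in 20 of 24 libraries and the copper chaperone Sco2 in all 24.

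Tests on recovered read counts called few members. Thalamus WT replicate 1 and thalamus KO replicate 3 were left out of these fits. In the thalamus DESeq2 called 3 of 78 members, Atp5s, Cox4i2 and Cox7a1, where it called 776 of 9720 genes. Atp5s was at 0, 237 and 34 in WT and 0, 0 and 0 in KO, Cox4i2 at 0, 0 and 0 and 0, 478 and 0, and Cox7a1 at 0, 0.823 and 0 and 4.1, 1178 and 0. Each of these calls thus rests on values at or near 0 in 1 group, and for Cox4i2 and Cox7a1 on thalamus KO replicate 2. In the average over regions DESeq2 called 2 of 78 members, Atp5s and Atp5sl, where it called 1154 of 11868 genes. Their log2 differences were -5.35 and 6.74, and they were at 0 in 8 and 12 of 24 libraries. Atp5sl was highest in olfactory bulb KO replicate 3, at 725.5, and the next library was at 498. The quasi-likelihood test of edgeR and limma-voom called 0 members in every KO comparison. Between regions limma-voom called 2 of 81 members, Atp5g1 and Cox8b, where it called 607 of 13468 genes. For edgeR these were 2 of 81, Atp5b and Cox8b, beside 709 of 13468 genes, and for DESeq2 1 of 72, Atp5k, beside 202 of 10434 genes.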

How the data were processed

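RNA of astrocytes sorted by FACS was sequenced in 24 libraries, 3 for each of 4 regions and 2 genotypes, grouped by the tissue, genotype and replicate labels. Per the labels' protocols, a micro column kit served to purify RNA, of which 10 ng went into each library (Revelo RNA-seq High Sensitivity kit, single 8-bp indices); molecular identifiers are not mentioned. Tools named in the submitters' processing notes are STAR 2.5.0a, FastQC 0.10.1, DESeq2 1.20.0, MultiQC 0.9 and R 3.5.2, with the mm10 mouse build. The counter, its annotation and its strand setting are not given in the sources used here, and overlapping or antisense genes may share reads.

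The deposited table holds a signal value per gene and library, read counts that the authors had divided by a size factor per library, as the values show: 100% of values were whole multiples of the library's step within 0.001. Whole reads were recovered from 22 columns for count tests; thalamus WT replicate 1 and thalamus KO replicate 3 have steps near 1 and 10, and were kept out of those tests. Of 24421 rows, 27 named as dates, with at most 0.255% of a library's reads, were left out. Libraries held 2517487 to 25616591 reads. A floor of 3 reads is 0.117 to 1.19 CPM, and intervals and floors cover counting error only. No column of other samples was used.

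Differences were tested with limma 3.58.1 (lmFit, eBayes with trend and robust) in R 4.3.3 on log2(value + 10), a scale that understates changes of low genes, for genes at 10 or more in at least 3 libraries, with Benjamini-Hochberg adjustment over all genes tested and a threshold of 0.05. The comparisons were KO against WT by region, as an average over regions and as a difference between regions, and the regions over both genotypes. Alternatives were pseudocounts of 1 and 100, no filter, TMM and upper-quartile scaling, a replicate block, leaving out each library, and limma-voom, edgeR 4.0.16 and DESeq2 1.42.0 on recovered reads. The limma tests were run first on simulated counts. Those had a smaller spread than the members show here, so that run does not measure the power of the tests in these data. Sums over a complex were described without a test. Levels per kb use the shortest principal transcript in GENCODE vM21 (GRCm38, the build called mm10), in which shared 50-base stretches were also counted. Promoters and their sequences are from RefSeq on GRCm38.p6. The members, the gene lists and the rule for named members (core subunits, isoform groups, the 2 highest members of each complex per kb and, in each comparison, the 5 with the smallest p and any called) were chosen with earlier results of these data known. Members named for groups that do not overlap or for a single high library were chosen after their values were seen, as were the repeats without the libraries rich in choroid plexus markers and those of gene lists and shared signs without the sparse libraries. Of the members, 1 is included in the counts and sums but not reported by name here.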

Additional observations from a re-analysis of the deposited data

Results flagged for a closer look

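Ndufs8, the iron-sulfur subunit of the complex I core, had every KO library above every WT library in the hippocampus and below in the thalamus. Its log2 difference of KO minus WT was 1.81 in the hippocampus and -4.30 in the thalamus, or -3.27 without thalamus KO replicate 3. In the thalamus, KO replicate 1 lay just under the lowest WT library, while KO replicates 2 and 3 were at 0. In the limma interaction test, which covers all 4 regions at once, its adjusted p was 0.939 over all genes.

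Ndufa8, an accessory subunit of complex I, had all KO libraries below WT in one region and above WT in another, at -1.69 in the hippocampus, where it stood at 467, 177 and 267 normalized reads in WT and 63.9, 74.3 and 107 in KO, and at 3.57 in the cortex, or 2.36 without cortex WT replicate 3. The limma interaction test gave an adjusted p of 0.939. Ndufs6, a zinc-binding accessory subunit with the reverse pattern, was at 90.1, 120.3 and 113 in WT and 245, 344 and 584 in KO hippocampus, a log2 difference of 1.69, and at -1.22 in the cortex. Its adjusted p in the limma interaction test was 0.939. The interaction test asks about all 4 regions at once, with all 24 libraries, and called none of these members. The pairs of regions named here were not tested on their own. These members were picked for groups that separate in opposite directions, and the share of all genes that do so was not counted.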

How the results depend on the processing

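With limma on the deposited values, 0 members were called in any comparison under any alternative run. On recovered reads, limma-voom and edgeR called 0 in the KO comparisons as well. DESeq2 called 3 of 78 in the thalamus, beside 776 of 9720 genes, and 2 of 78 in the average over regions, beside 1154 of 11868 genes. Between regions voom called 2 of 81 members beside 607 of 13468 genes, edgeR 2 of 81 beside 709 of 13468, and DESeq2 1 of 72 beside 202 of 10434. No member was called in opposite directions under different settings. Differences that were not called and summed levels did change sign between settings, as given above and below. The cause of the differences between tools was not tested.

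Counts of all genes called moved more. In the olfactory bulb DESeq2 called 155 and leaving out a library gave 0 to 2. In the hippocampus, where 1 gene was called, a pseudocount of 1, no filter, voom and edgeR each gave 0, upper-quartile scaling 2, a pseudocount of 100 and the replicate block 3 each, DESeq2 508, and leaving out a library 1 to 7. In the cortex voom called 2, edgeR 9 and DESeq2 99. In the thalamus voom and edgeR each called 1, DESeq2 776, and leaving out a library gave 0 to 1. In the average voom called 6 and DESeq2 1154. In the interaction no filter gave 9, voom 19, edgeR 1, DESeq2 9 and leaving out both sparse libraries 1. Between regions, where 175 were called, voom called 607, edgeR 709, the fit without both sparse libraries 356, the WT libraries alone 28, and leaving out a library 112 to 217.

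Summed levels (log2 of KO over WT) moved with single members, with the scaling and with single libraries. Without its most abundant member, complex II in the hippocampus went from -0.37 to 0.28 and complex V in the cortex from -0.79 to 0.63. The sum of all members in the thalamus went from 0.09 on normalized reads to -0.23 on CPM. Leaving out a library moved the cortex sums of complex III over -0.22 to 0.80, complex IV over -1.37 to 0.12 and complex V over -1.11 to 0.091. The cortex sum of all members moved over -0.80 to 0.19. The highest value of each was reached without cortex WT replicate 3. Other sums also crossed 0 when a library was left out. Among them were complexes II (-0.20 to 0.56) and IV (-0.25 to 0.19) in the olfactory bulb and III (-0.24 to 0.20) in the hippocampus. Complex I in the cortex (-0.32 to 0.10) and complexes I (-0.19 to 0.26), II (-0.17 to 0.40) and III (-1.33 to 0.08) in the thalamus did so too.

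Upper-quartile scaling moved the median of all genes from -0.04 to -0.15 in the olfactory bulb and from -0.16 to -0.29 in the hippocampus, with member medians then at 0.04 and 0.09, and TMM moved it from 0.49 to 0.63 in the cortex, with members at 0.95. Same-numbered WT and KO libraries of a region had correlations of their deviations of -0.067 to 0.093, so the numbers were not taken as pairs. Between regions, same-numbered libraries of a genotype had correlations of -0.042 to 0.102. Whether the regions share animals is not known here, and the main limma tests over several regions treat the 24 libraries as independent. The replicate block, as a paired fit, called 0 members in every comparison. Averaging hippocampus WT replicates 2 and 3, which were unusually alike, also called 0 members. The 2 sparse libraries held the fewest reads and detected genes, so values near 0 there limit every cortex and thalamus result.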
